A study of Mus musculus with 8 samples.

Results

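The dose comparison in the left ventricle was examined on the scale of 1 Mb of the genome, by adding up the counts of all listed regions of 5-hydroxymethylcytosine (5hmC) that fall into the same fixed 1 Mb window. A window, called a bin here, was kept if it lay on an autosome and held at least 3 regions. Regions whose mean over the 4 libraries exceeded 20 times that of the median region were left out first. This gave 1530 bins of the 2159 autosomal bins with any region, and they hold 10572 of the 11664 ventricular regions. Another 925 regions lay in the 629 sparser bins, 12 were left out for their height, 140 lay on chromosome X and 15 on chromosome Y. The highest region that was kept had a mean of 1244 CPM (each count relative to the total of its library), the lowest that was left out 1346 CPM, and the median region 64.1 CPM. Neither the dose nor the difference between pools entered this choice.

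The animals were C57BL/6 mice that carried no stated genetic change. They were given either 1 Gy of protons or 0 Gy (sham), and DNA of the ventricle was taken 20 weeks later. Per treatment, DNA from 5 animals went into pools that were immunoprecipitated for 5hmC (DIP-seq), and each dose has 2 such pools, called sham pool 1 and 2 and irradiated pool 1 and 2. The sources do not say if the 5 animals were divided between both pools or if each pool has its own 5, so p-values measure the spread between pools. They give neither age nor sex of the mice. A tissue label cannot be checked by marker expression in libraries of DNA. The hippocampus of mice given the same doses, also with 2 pools per dose, makes up the other 4 of the 8 libraries.

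In mammals 5hmC is made from 5-methylcytosine when TET enzymes oxidise the methyl group. It is an intermediate on the way to the loss of methylation and can also persist, and in differentiated tissues it is known to gather in the bodies of active genes and at enhancers. Cardiomyocytes form most of the mass of the ventricle, while endothelial cells, fibroblasts and blood cells add many of its nuclei, and each cell type has its own pattern of 5hmC. Protons are the main particle of space radiation and are used in radiotherapy, and late changes of heart tissue after chest irradiation are known. A pool of whole-tissue DNA cannot tell a change in the share of a cell type apart from a change of 5hmC within cells.

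The bins were thinly filled. Sham pools 1 and 2 held 62166 and 32868 counts in the kept bins, irradiated pools 1 and 2 held 74142 and 87077, which is between 66.2% and 85.4% of each library's counts in regions. The 12 regions left out for their height held 16.9% and 27.0% in sham pools 1 and 2. In irradiated pools 1 and 2 they held 4.52% and 14.8%. The median bin had sham counts of 34 and 16 and irradiated counts of 42 and 47. Sham pool 2 was the shallowest and had 97 bins at 0, against 32, 1 and 18 in sham pool 1, irradiated pool 1 and irradiated pool 2. A pool at 0 may still have an expected count of up to 3, equal to 91.3 CPM in sham pool 2 and 34.5 CPM in irradiated pool 2. Floors and counting intervals take in the error of counting alone and leave out the spread between pools. The handling of duplicates was not given, so reads need not be separate molecules.

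A kept bin held a median of 6 regions and at most 24, and 79.6% of the regions were exactly 2544 bp wide. Reads of a region mostly came from some of the pools. Of the 10572 regions, 11.8% had reads in 1 pool, 35.5% in 2 pools, 37.3% in 3 pools and 15.4% in all 4. Irradiated pool 1 had reads in most regions, with 20.5% of them at 0, against 37.3% and 53.7% in the sham pools and 32.3% in irradiated pool 2. It was also the pool with the highest CPM in 3858 regions (36.5%), where it supplied a median of 73.8% of the summed CPM of the 4 pools. Irradiated pool 1 therefore stands apart from the rest, and its removal is given beside the results below.

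Regions seen in both pools of a dose and in neither pool of the other were unequal in number. Of the 10572 regions, 1180 had reads in both irradiated pools and in no sham pool, and 142 had the opposite pattern. More regions stood at 0 in the sham pools, 37.3% and 53.7%, against 20.5% and 32.3% in the irradiated pools. What these shares alone would give was not computed, so the 2 numbers are not read as a dose difference. Both irradiated pools had reads in 5305 regions and both sham pools in 3206, while sham pool 1 shared 4921 regions with irradiated pool 1 and 4574 with irradiated pool 2. The irradiated pools are also the deeper ones, and the part of depth in these counts was not tested.

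Pairs of pools of the same dose and of different doses were about equally alike on average. Bins are no replicates of each other. Over the 1530 bins the Spearman correlation of CPM was 0.507 for the pair of sham pools and 0.523 for the irradiated pair. The 4 pairs that cross the doses gave 0.467, 0.537, 0.489 and 0.543. The mean was 0.515 within and 0.509 across doses, a difference of -0.0064 when the within-dose mean is subtracted, where the 6 values have an SD of 0.0293. The log2 ratio of 2 pools, taken after adding 50 CPM to each, had a mean SD over bins of 1.25 across doses and 1.23 within a dose. The within-dose mean joins the largest value, 1.39 for the sham pair, and the smallest, 1.07 for the irradiated pair. The 4 pairs across doses lay between 1.15 and 1.33.

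Much of the likeness lay in the number of regions that a bin holds. Bin counts correlated with the number of regions at 0.720 (sham pool 1), 0.648 (sham pool 2), 0.846 (irradiated pool 1) and 0.786 (irradiated pool 2). When each bin's CPM was divided by its number of regions, the sham pools correlated at 0.0775 and the irradiated pools at -0.471. Irradiated pool 1 correlated at -0.413 with sham pool 1 and at -0.188 with sham pool 2, so its correlation with each other pool was negative on this scale. The pairs without it lay between -0.0505 and 0.103. All pools share 1 region list, and what part the making of that list has in these values was not tested.

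**Figure D1:**
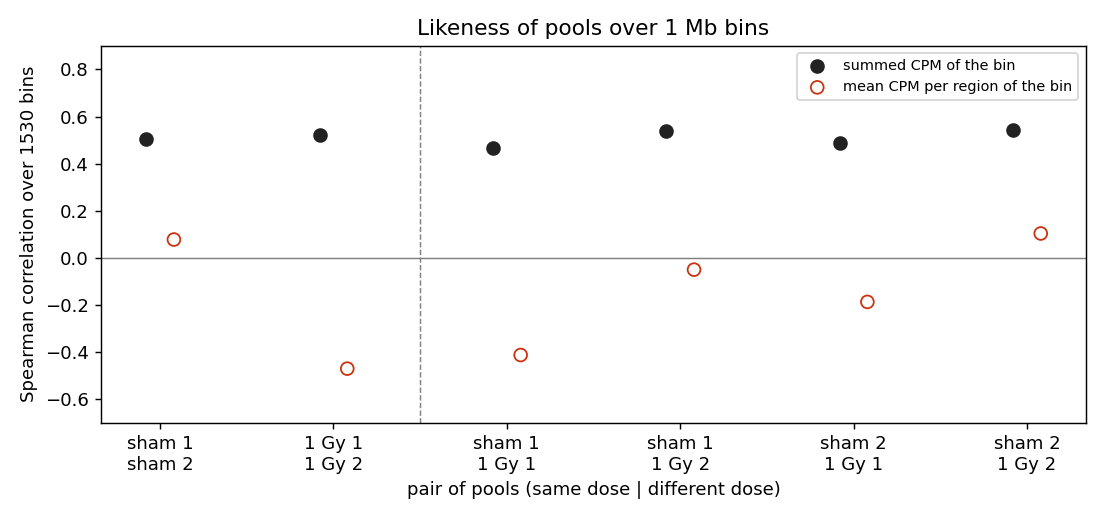
Spearman correlation (vertical axis) of each of the 6 pairs of ventricular pools over 1530 bins, for the summed CPM of a bin (filled points) and for its CPM per region (open points), with pairs of the same dose on the left of the dashed line. The summed values lie between 0.467 and 0.543 in all pairs, while per region the pair of irradiated pools is lowest at -0.471.

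No bin passed the test for a dose difference. edgeR's quasi-likelihood test with p-values adjusted by Benjamini-Hochberg and a false discovery rate (FDR) of 0.05 called 0 of 1507 bins tested (0% called), and the smallest adjusted p was 0.991. At an unadjusted p under 0.05 there were 59 bins, 30 higher and 29 lower after 1 Gy. That is fewer than the 75.4 expected among 1507 tests if no bin differed. DESeq2 on the same sums called 3 bins, 1 higher and 2 lower, with 115 bins at an unadjusted p under 0.05. Without irradiated pool 1, edgeR called 0 bins, with 36 at an unadjusted p under 0.05 and a smallest adjusted p of 0.0542. The 3 bins called by DESeq2 are on chromosomes 15, 5 and 2 and are described below.

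The fold changes lay on both sides of 0. The median log2 fold change of 1 Gy against sham was 0.03, and the 5th and 95th percentiles were -1.30 and 1.74. TMM scaling places the bulk of the bins near 0, so a gain or loss shared by all bins would not show. In 218 bins the estimate was over 1 and in 154 it was under -1, that is, past a change of 2-fold. In 260 of the 1507 bins (17.3%) the irradiated pools were both higher than either sham pool, and in 241 (16%) both were lower.

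The width of the intervals limits what the comparison can show. The median standard error of a bin's log2 fold change was 0.79, and the 95% interval reached a median of 1.81 to each side, which is 3.51-fold. The interval lay within 2-fold of no change in 0 bins and within 4-fold in 465 bins (30.9%). A difference of 2-fold in a typical single bin was therefore not detectable at this depth and spread.

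**Figure D2:**
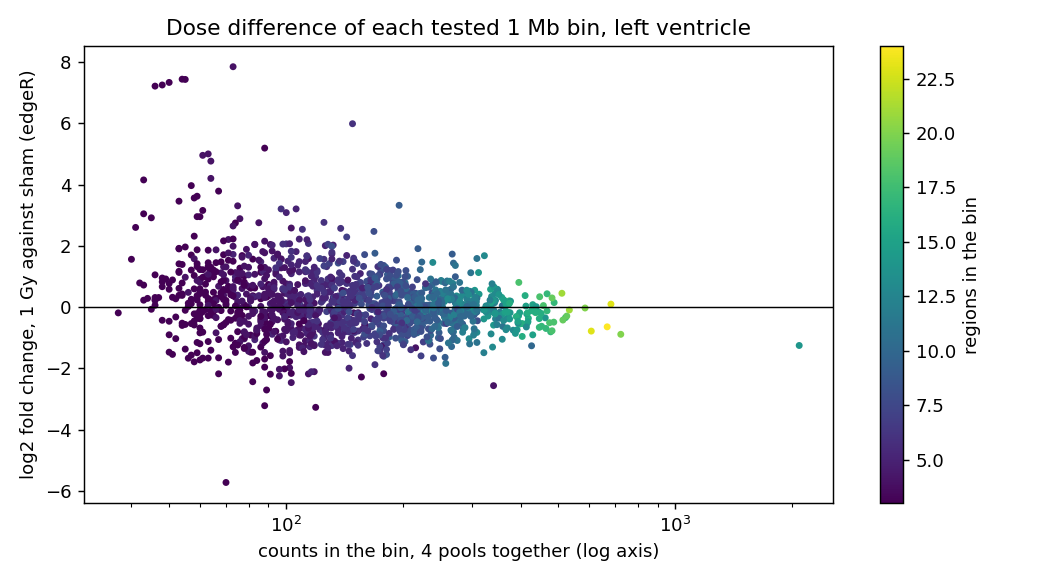
Log2 fold change of each of the 1507 tested bins (vertical axis, edgeR estimate, 1 Gy against sham) by the counts of the bin summed over the 4 pools (horizontal log axis), coloured by the number of regions in the bin. The spread narrows to the right, and the estimates over 7 belong to bins at 0 counts in both sham pools, where the estimate depends on the prior count.

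Bins with more regions were measured more precisely. Among bins with 3 to 5 regions the median standard error was 1.16, with 6 to 9 regions 0.70 and with 10 or more regions 0.54. The interval lay within 4-fold in 2.15%, 33.8% and 81.9% of these bins. The median log2 fold change was 0.14, 0.02 and -0.06 in the same order, but with loess offsets, which remove a trend with abundance, it was -0.35, 0.06 and 0.14, so the direction of this order depends on the scaling. It also depends on irradiated pool 1, without which the medians were -0.09, 0.04 and 0.02.

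Of the 260 bins above the sham pools, 104 lay in the lowest of 4 equal groups of bins by mean abundance, a split chosen after seeing the data. In that group the median log2 fold change was 0.48, with 104 of 377 bins above and 24 below the sham pools. In the highest group it was -0.17, with 28 of 377 bins above and 85 below. Without sham pool 1 the median of the lowest group was 1.21, without irradiated pool 1 it was 0.20, and with loess offsets it was -0.22. The 2 sham pools are the shallower ones, and the part of depth in this pattern was not tested.

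The 5 bins with the smallest p among those whose irradiated pools both lay above the sham pools were on chromosomes 15, 2, 3 and 17, all with an adjusted p of 0.991. The one with the smallest p covered 7 to 8 Mb of chromosome 15 (chr15:7000001-8000000, build mm9) and held 9 regions. It had sham counts of 9 and 2 and irradiated counts of 99 and 85, or 105 ± 56.1 against 1125 ± 201 CPM (SD, n = 2 pools each; edgeR, adjusted p = 0.991). Both irradiated pools were far above both sham pools, with a log2 fold change of 3.32 ± 0.75 (SE) and an unadjusted p of 0.00210 in edgeR's test across all bins. DESeq2 gave this bin an adjusted p of 0.0154. It passed edgeR's filter on low counts through the irradiated pools alone. The estimate was 4.09 without sham pool 1 and 3.16 without irradiated pool 1.

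The counts of the chromosome 15 bin came from different regions in the 2 irradiated pools. Irradiated pool 1 had reads in 7 of the 9 regions and irradiated pool 2 in 5, and they shared 3. The region at chr15:7115975-7117937 held 32 counts of irradiated pool 2, none of irradiated pool 1, and 1 and 2 counts of the sham pools. At chr15:7095318-7097861 both irradiated pools had reads, with 13 and 12 counts, and both sham pools stood at 0. The neighbouring bins at 6 to 7 Mb and 8 to 9 Mb had log2 fold changes of 0.99 ± 0.86 and 1.21 ± 1.39 (SE), and in both of them the groups overlapped.

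Chromosome 17 gave the only adjacent pair among the 10 bins with the smallest p. The bin at 43 to 44 Mb, with 8 regions, had sham counts of 9 and 6 and irradiated counts of 78 and 75. That is 170 ± 35.8 against 932 ± 92.5 CPM (SD, n = 2 pools each; edgeR, adjusted p = 0.991), and the log2 fold change was 2.47 ± 0.72 (SE). Its irradiated pools shared 6 of the 8 regions, the most of these 5 bins. The region at chr17:43271074-43273617 had 16 and 15 counts in the irradiated pools and 0 in both sham pools.

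The bin before it, at 42 to 43 Mb of chromosome 17, held 3 regions with no sham count and irradiated counts of 23 and 32. With 3 counts put in each sham pool the ratio would be 4.56, which leaves out the spread between pools. The 95% interval in edgeR was 1.88 to 12.98 on the log2 scale, with an adjusted p of 0.991. Without sham reads, the bin passed the filter through the irradiated pools alone. Only the region at chr17:42926139-42928682 had reads in both irradiated pools, 9 and 13. The bin on the other side of the pair, at 44 to 45 Mb, had a log2 fold change of -0.02 ± 0.92 (SE) and overlapping groups.

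Chromosome 3 carried another bin without sham reads. At 127 to 128 Mb its 4 regions had sham counts of 0 and 0 and irradiated counts of 35 and 38. It too passed the filter through the irradiated pools alone. With 3 counts put in each sham pool the ratio would be 6.10, again without the spread between pools. The 95% interval in edgeR was 2.78 to 12.90 on the log2 scale. The irradiated pools had reads in 3 regions each and shared 2 of them, of which chr3:127883040-127885583 held 9 and 16 counts. The bin at 17 to 18 Mb of chromosome 2, with 6 regions, had sham counts of 0 and 1 and irradiated counts of 20 and 127. This bin also passed the filter through the irradiated pools alone. With 1 sham count in all, the ratio of summed counts, scaled by depth, was 83.2, with an exact 95% counting interval from 14.7 to 3308. Its irradiated pools lay at 256 and 1468 CPM, so they differed from each other as well. The edgeR estimate of 5.98 became 6.73 without irradiated pool 1, where this bin had the adjusted p of 0.0542 given above, and ranged from 4.10 (without irradiated pool 2) to 9.04 (without sham pool 2). DESeq2 gave an adjusted p of 0.051.

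The 5 bins of the other direction were on chromosomes 5, 2, 11 and 4, again with an adjusted p of 0.991 each. The bin at 14 to 15 Mb of chromosome 5 had the smallest p of all bins, 0.00122 in edgeR's test. Its 3 regions had sham counts of 44 and 24 and irradiated counts of 1 and 1, or 742 ± 52.3 against 12.2 ± 0.871 CPM (SD, n = 2 pools each; edgeR, adjusted p = 0.991). With 2 irradiated counts in all, the sham pools stood 60.1 times higher, with a counting interval from 16.0 to 506. The bin passed the filter through the sham pools alone. DESeq2 gave it an adjusted p of 0.00795.

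Most reads of the chromosome 5 bin came from the same regions in both sham pools. The region at chr5:14677436-14680009 had sham counts of 19 and 16 and stood at 0 in the irradiated pools. The one at chr5:14683164-14685933 had 12 and 8 against 0 and 1. The first region of the bin, chr5:14602569-14605112, had 13 counts in sham pool 1 and none in sham pool 2. Both neighbouring bins held fewer than 3 regions and were not kept.

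Chromosome 2 held a pair of lower bins that do not adjoin each other. At 9 to 10 Mb, 3 regions had sham counts of 40 and 58 and irradiated counts of 10 and 11, a log2 fold change of -3.27 ± 0.78 (SE). All 58 counts of sham pool 2 lay in the region chr2:9663241-9665784, which held 65.5% of the bin's counts over the 4 pools. Sham pool 1 had 13 counts there and 27 at chr2:9061422-9063965, where sham pool 2 had none. The sham pools thus had most of their counts in different regions. DESeq2 gave the bin an adjusted p of 0.00795. It had passed edgeR's filter through the sham pools alone. Without sham pool 2 the estimate was -2.32 and without sham pool 1 it was -3.85. At 14 to 15 Mb of chromosome 2, 4 regions had sham counts of 50 and 28 and irradiated counts of 15 and 10, with a log2 fold change of -2.46 ± 0.79 (SE). There the region chr2:14793850-14798082 had reads in all 4 pools, 15 and 21 against 4 and 8.

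On chromosome 11 the bin at 99 to 100 Mb had sham counts of 45 and 25 and irradiated counts of 10 and 9 (log2 fold change -2.70 ± 0.86, SE). It passed the filter through the sham pools alone. Its regions did not all differ in the same direction. Those at chr11:99156852-99159395 and chr11:99491355-99493898 had 18 and 12, and 23 and 13, counts in the sham pools and 0 in both irradiated pools. All irradiated counts of the bin, 10 and 9, lay in the region chr11:98999759-99003094, which had 4 and 0 counts in the sham pools.

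Of these 5 lower bins the one with the most regions was that at 8 to 9 Mb of chromosome 4. Its 7 regions had sham counts of 102 and 40 and irradiated counts of 41 and 39, 1467 ± 238 against 488 ± 52.1 CPM (SD, n = 2 pools each; edgeR, adjusted p = 0.991). The log2 fold change was -1.59 ± 0.51 (SE). In 4 of its regions both irradiated pools lay below both sham pools in CPM. In 1 region, chr4:8730038-8732581, both lay above, with 3 and 0 counts against 13 and 13. The bin was chosen for its lower sum, so the larger number of lower regions is in part built in. The share of such regions over the whole list was not computed. Without irradiated pool 1 the estimates of the 5 lower bins were between -5.77 and -1.70 and those of the 5 higher bins between 2.36 and 7.73, where the values over 7 belong to the bins without sham reads and depend on the prior count.

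**Figure D3:**
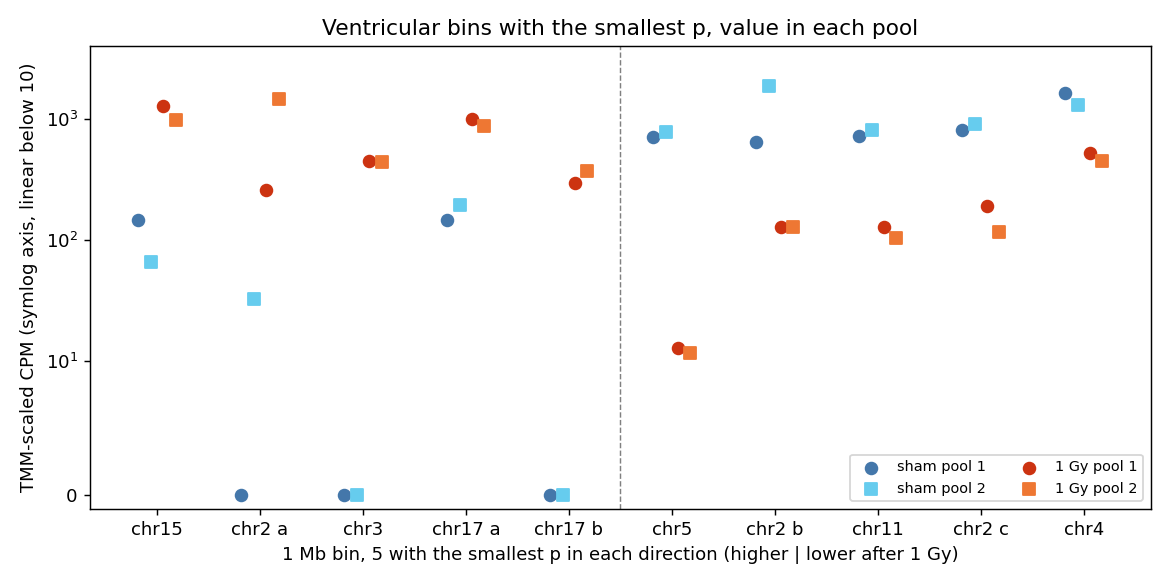
TMM-scaled CPM of each pool (vertical axis, logarithmic above 10 and linear below) in the 5 bins with the smallest p in each direction, from left to right in the order of their p (chr2 a, b and c start at 17, 9 and 14 Mb, chr17 a and b at 43 and 42 Mb). The groups are apart in all 10 bins because the bins were chosen so, and the pools of a dose lie farthest apart at chr2 a and chr2 b, where they were 256 and 1468 CPM (irradiated) and 641 and 1883 CPM (sham).

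Differences of adjacent bins showed no common sign over the genome. Of the 8 kept and tested neighbours of the 5 higher bins, 5 had an estimate of the same sign, counting each member of the chromosome 17 pair as the neighbour of the other. Of the 4 tested neighbours of the lower bins 1 had the same sign. Over all 1132 adjacent pairs of tested bins the correlation of log2 fold changes was -0.0048. The longest run of adjacent bins in which the irradiated pools all lay above the sham pools was 3 bins, and the longest in which they lay below was 3. When the regions of each bin were dealt into 2 sets, the dose differences of the sets correlated at 0.054 over bins.

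The fullest bins, by CPM or number of regions, had standard errors between 0.46 and 0.69, below the 0.79 of the median bin. The bin at 3 to 4 Mb of chromosome 11 had the highest CPM, with sham counts of 602 and 530 and irradiated counts of 238 and 711. In CPM both irradiated pools lay below both sham pools, 3045 and 8220 against 9650 and 17210, and the log2 fold change was -1.25 ± 0.65 (SE; unadjusted p = 0.0882 in edgeR's test). With each pool left out in turn the estimate was between -2.15 (without irradiated pool 2) and -0.70 (without irradiated pool 1). With loess offsets it was -0.13, and with regions of the most common width only -0.25.

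In the bin at 90 to 91 Mb of chromosome 1, 20 regions had sham counts of 248 and 120 and irradiated counts of 111 and 245 (log2 fold change -0.89 ± 0.52, SE). The bin at 118 to 119 Mb of chromosome 11 had the most regions, 24, with 233 and 86 against 123 and 226 counts (-0.64 ± 0.50). At 138 to 139 Mb of chromosome 4, 23 regions had 185 and 110 against 143 and 170 counts (-0.78 ± 0.46). In these bins the irradiated pools lay below the sham pools in CPM, and each interval includes 0. Among the 1507 tested bins the irradiated pools both lay below in 16%. In the group of highest mean abundance they did so in 85 of 377 bins. The lack of overlap in these bins, and in the bin of highest CPM, is therefore not read as a common loss. Without irradiated pool 1 the estimates were -0.47, -0.32 and -0.73, and without irradiated pool 2 -1.48, -1.07 and -0.85. With loess offsets they were -0.42, -0.23 and -0.27.

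The bin at 52 to 53 Mb of chromosome 7, also with 23 regions, shows how far pools of 1 dose can part. It had sham counts of 134 and 90 and irradiated counts of 79 and 380, so that irradiated pool 1 was the lowest and irradiated pool 2 the highest of the 4 at 1011 and 4393 CPM. Its log2 fold change was 0.10 ± 0.69 (SE), and leaving out single pools moved it between -1.33 and 0.80.

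The 5 regions with the smallest p in each direction in a test of single regions all lay in kept bins. Of their 10 bins, 4 had overlapping groups and in 6 the groups were apart in the direction of the region. Among all 1507 tested bins, the irradiated pools both lay above the sham pools in 17.3% and both below in 16%. The 10 regions were chosen for their difference and their counts are part of the bins. The 6 bins are therefore not read as support for the regions. The region at chr8:48276234-48278813 had no sham count and irradiated counts of 23 and 34. Its bin, with 17 regions, had 74 and 56 against 101 and 237 counts, a log2 fold change of 0.44 ± 0.55 (SE), and overlapping groups. The region at chr7:146685696-146688264 had sham counts of 13 and 36 and stood at 0 in the irradiated pools, while its bin had 33 and 51 against 74 and 116 counts and a log2 fold change of 0.10 ± 0.63 (SE).

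In the other 6 the bin leaned the way of its region. Around chr1:189616845-189620282, which had sham counts of 22 and 29 and stood at 0 in both irradiated pools, the bin had 62 and 31 against 24 and 31 counts and a log2 fold change of -1.58 ± 0.62 (SE). Around chr5:150419903-150423458, with no sham count and irradiated counts of 17 and 23, the bin had 32 and 26 against 113 and 127 counts and a log2 fold change of 1.12 ± 0.52. A bin's counts include those of the region, so the likeness of sign is in part built in.

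Widening the windows narrowed the spread without bringing out a called difference. The biological coefficient of variation, the spread between pools beyond counting error as a ratio of the mean, was 1.44 for single regions, 0.581 for bins of 1 Mb, 0.375 for bins of 5 Mb and 0.266 for bins of 10 Mb. The median standard error was 2.38, 0.79, 0.45 and 0.31 in the same order. edgeR called 0 units at each of these widths and at 0.5 and 2 Mb, and the smallest adjusted p was 0.138, at 2 Mb. At an unadjusted p under 0.05 there were 66 of 2594 regions tested, 45 of 1020 bins of 2 Mb and 7 of 255 bins of 10 Mb.

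**Figure D4:**
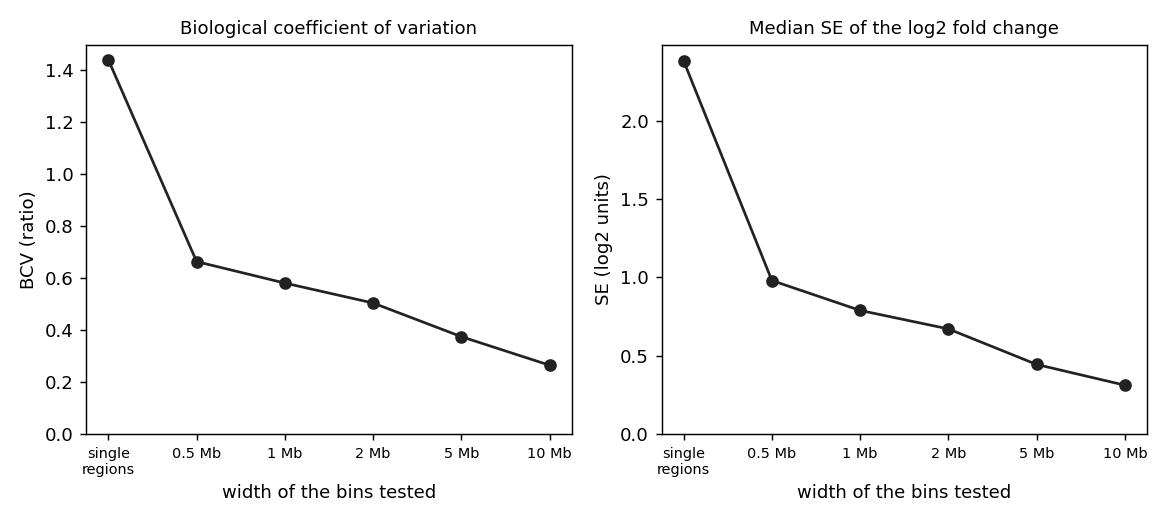
Biological coefficient of variation (left) and median standard error of the log2 fold change (right), both starting at 0, by the width of the tested bins. Both fall at each step from single regions (1.44 and 2.38) to bins of 10 Mb (0.266 and 0.31).

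Relative to each other, whole autosomes were close between the doses. A gain or loss common to all of them would not show after scaling. With the kept bins of a chromosome added up, edgeR called 0 of 19 autosomes (0% called), and 3 had an unadjusted p under 0.05. DESeq2 also called 0, with 3 at an unadjusted p under 0.05. The 95% intervals reached between 0.15 and 0.21 to each side on the log2 scale, and the bound farthest from 0 over all 19 was 0.38, which is 1.30-fold. In 5 autosomes (26.3%) the irradiated pools lay outside the range of the sham pools, higher for chromosomes 10 and 16 and lower for 1, 11 and 19.

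Chromosome 19 had the smallest p. It held 2.93% and 2.80% of the kept counts of the sham pools, against 2.58% and 2.44% after irradiation, a log2 fold change of -0.21 ± 0.07 (SE; edgeR, adjusted p = 0.157). The groups did not overlap, as in 5 of the 19 autosomes, and the SD of the 2 sham pools was 0.0955 percentage points. Chromosome 19 was named for its p, so the lack of overlap adds no support. With the high-count regions kept the estimate was -0.17 (edgeR, adjusted p = 0.432). With irradiated pool 1 left out the adjusted p was 0.00659, and with irradiated pool 2 left out 0.00825, so that the chromosome passed. With sham pool 1 or 2 left out it was 0.875 and 0.821. A lone pool is then assumed to vary like the other group.

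Chromosome 11 held 7.86% and 7.75% of the kept counts of the sham pools, against 6.34% and 7.39% after irradiation, with a log2 fold change of -0.20 ± 0.09 (SE; edgeR, adjusted p = 0.215). Its bin at 3 to 4 Mb, the one of highest CPM, supplied 602 of 4886 counts for sham pool 1 and 530 of 2548 for sham pool 2. For irradiated pool 1 this bin gave 238 of 4702 counts, and for irradiated pool 2 it gave 711 of 6435. The chromosome was not tested without this bin, so its difference is not read as chromosome-wide. On this chromosome irradiated pool 1 lay far below the others. Without it the estimate was -0.09, and without irradiated pool 2 it was -0.34 and passed with an adjusted p of 0.00483. Chromosome 16, named here after its values were seen, held 3.11% and 3.26% in the sham pools, against 3.77% and 3.59% after irradiation (0.20 ± 0.09, adjusted p = 0.215 in edgeR's test).

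**Figure D5:**
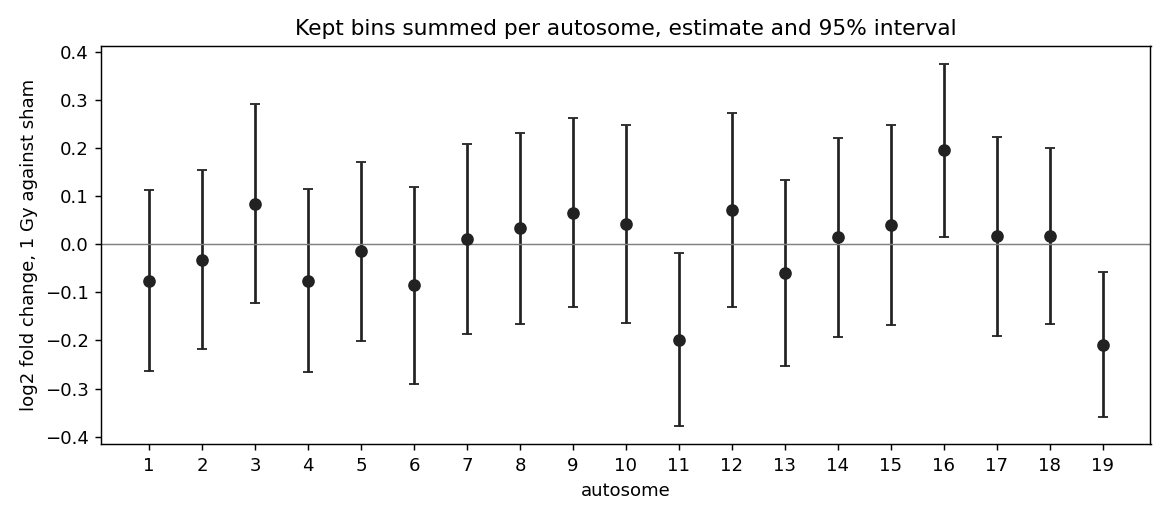
Log2 fold change of 1 Gy against sham (vertical axis) with its 95% interval for the summed kept bins of each of the 19 autosomes (horizontal axis). The intervals of chromosomes 11, 16 and 19 leave out 0 before adjustment, and all estimates lie within 0.21 of 0.

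The share of counts in region-poor and region-rich bins did not separate the doses. Bins with 3 to 5 regions took 22.7 ± 0.462% of the kept counts in the sham pools and 23.6 ± 3.33% in the irradiated pools. Bins with 6 to 9 regions took 34.5 ± 1.55% and 35.4 ± 0.102%, and bins with 10 or more 42.8 ± 2.01% and 41.1 ± 3.22% (SD, n = 2 pools each). The groups overlapped in each class, and exact two-sided permutation tests gave p = 1, 1 and 0.667, where 2 pools against 2 cannot give less than 0.3333. Irradiated pool 1 had the largest share in bins with 3 to 5 regions, 25.9%, and the smallest in bins with 10 or more, 38.8%, so it lay at the edge of both classes. The differences changed direction with the high-count regions kept, to -6.81 percentage points (irradiated minus sham) for 3 to 5 regions and 3.10 for 10 or more, and without irradiated pool 1, to -1.41 and 0.51.

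The hippocampus was used to ask whether a bin's dose difference belongs to the ventricle. In 1473 bins kept in both tissues, the dose by tissue interaction was called in 0 bins (0% called) by edgeR at an FDR of 0.05, with 112 at an unadjusted p under 0.05 and a smallest adjusted p of 0.450. DESeq2 called 26, with 15 more positive and 11 more negative in the ventricle, and had 200 at an unadjusted p under 0.05. A difference between the tissues was therefore called by 1 of the 2 tools only. Without irradiated pool 1 of the ventricle, edgeR called 0 bins, with 166 at an unadjusted p under 0.05 and a smallest adjusted p of 0.109.

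The 3 smallest interaction p belonged to ventricular bins that were nearly empty in the sham pools. At 42 to 43 Mb of chromosome 17 the hippocampus had sham counts of 111 and 28 and irradiated counts of 323 and 334, a log2 fold change of -0.70 at its own depth. At 127 to 128 Mb of chromosome 3 it had 54 and 24 against 238 and 359 counts and a log2 fold change of -0.15. At 8 to 9 Mb of chromosome 17 the ventricle had sham counts of 3 and 1 and irradiated counts of 26 and 45, and the hippocampus 139 and 68 against 708 and 621. The interaction of this last bin was 3.80 ± 0.88 on the log2 scale (SE; edgeR, adjusted p = 0.450). DESeq2 gave these bins adjusted p-values of 0.00764, 0.0114 and 0.0121.

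The other 7 leading bins that were also kept in the hippocampus had smaller estimates there, between -0.72 and 0.24, and all had been chosen for their difference in the ventricle. The bin at 14 to 15 Mb of chromosome 2 was not kept there and has no hippocampal value. The chromosome 15 bin at 7 to 8 Mb had a hippocampal log2 fold change of 0.24, and the chromosome 5 bin at 14 to 15 Mb one of -0.72. The fullest bin, at 3 to 4 Mb of chromosome 11, was -1.25 in the ventricle, where loess offsets gave -0.13, and 1.28 in the hippocampus. Its interaction was -2.51 ± 0.77 (SE; edgeR, adjusted p = 0.556), which did not pass. As the hippocampal counts show, the irradiated hippocampal pools are several times deeper than the sham pools, and the part of depth in these differences was not tested.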

How the data were processed

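Counts of the ventricular and hippocampal 5hmC libraries were used. The authors deposited raw counts of reads in the regions of 1 merged list per tissue, with the same coordinates in the 4 ventricular files (build mm9). Per the submitters' processing notes, CASAVA 1.8.2, Bowtie 1.0.0 and DESeq2 were used, without a stated role. Peak caller, threshold, merging and the handling of duplicates were not given in the sources used here. Since the files look like BED intervals, 1 was added to each start. The counts relate to chosen regions, so their total is not the library's depth.

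Titles gave the tissue and dose of each pool. Regions were assigned to bins by their midpoint and counts were summed. edgeR 4.0.16 (R 4.3.3) tested 1 Gy against sham with TMM scaling, filterByExpr, a quasi-likelihood F-test and an FDR of 0.05, on the 4 ventricular pools, and for the interaction on all 8. The CPM of a bin relates to the counts of the bins and is TMM-scaled. The filter kept 1507 bins. Standard errors were derived from the log2 fold change and the F statistic.

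Named bins are those past the FDR with groups that do not overlap, made up to 5 per direction by the smallest p among bins without overlap; the 3 with the highest mean CPM; the 3 with the most regions; the 3 with the smallest interaction p; and the autosomes past the FDR or else the 2 with the smallest p. The members and lists were chosen with earlier results of these data known. The tables of single regions, neighbouring bins and pools with reads, the split by abundance, and the naming of chromosome 16, were added after seeing the data. Gene lists could not be applied, since no annotation of build mm9 was used here, and no gene is named for that reason. Alternatives were DESeq2 1.42.0, other scalings, filters, widths, borders and region sets, thinned pools, each pool left out and the replicate number as a block. The scripts were tested on simulated data.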

Additional observations from a re-analysis of the deposited data

How the results depend on the processing

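Of the 24 alternatives for bins, 23 gave 0 called bins, as did the first fit; DESeq2 called 3. Without irradiated pool 1 the smallest adjusted p in edgeR was 0.0542. The sign of each of the 10 bins with the smallest p was the same in all alternatives that gave a value. These bins were chosen for groups that lie apart, and the alternatives use the same counts. The constant sign was therefore largely set by the choice and is not read as support. For autosomes the count was 0 in 6 of 9 alternatives and ranged from 0 to 2 with single pools left out. With the replicate number as a block it was 1, chromosome 19, with an adjusted p of 8.4e-05. Under that block 0 bins were called, 37 had an unadjusted p under 0.05, and the chromosome 7 bin reversed to -0.24. With single pools left out that bin was between -1.33 and 0.80. Deviations of pools with the same number correlated at 0.0429, so the number was not treated as a pairing. The interaction count was 26 with DESeq2 and 0 in the other 9 alternatives. The difference in the share of bins with 3 to 5 regions (irradiated minus sham, 0.94 percentage points) was -6.81 with the high-count regions kept and between -1.41 and 3.29 with single pools left out. That of bins with 6 to 9 regions (0.83) was 3.71 with the high-count regions kept and between -0.26 and 1.93 with single pools left out. That of bins with 10 or more (-1.77) was 3.10 with the high-count regions kept and between -4.05 and 0.51 with single pools left out. The causes were not tested. The 2 pools per dose and the median of 16 counts per bin in sham pool 2 limit all of these comparisons.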
